A study of Mus musculus with 4 samples.

Results

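The Hox gene clusters are 39 protein-coding mouse genes in 4 chromosomal groups, Hoxa, Hoxb, Hoxc and Hoxd. Genes were chosen by symbol from the RefSeq gene table of build GRCm38.p6. Open-chromatin peaks were then taken from 100 kb before the first to 100 kb after the last gene of each cluster. These windows held 98 of 49394 peaks in Gata2WT and 86 of 44139 peaks in Gata2cKO. The assay was ATAC-seq, which cuts and tags accessible DNA with a transposase, on 4 libraries of about 10000 cells each. Cells were germ cells enriched with beads against SSEA1, a surface carbohydrate of early germ cells, from ovaries of C57BL/6J female fetuses at E14.5, a mid-gestation day. The groups were Gata2WT (2 samples) and Gata2cKO (2 samples), from Gata2flox/flox dams and sires that were Gata2flox/+ and carried Prdm1-Cre, and both groups went through the same trypsin digestion. Cre is driven by the Prdm1 gene and thus acts in cells that express it. Each embryo of this cross inherited a floxed allele from its dam, and which allele combinations were counted as Gata2WT is not given in the labels. The labels call the cell type ovarian cells, and whether embryos were pooled is not stated.

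Each genotype has 1 combined peak list. There is therefore no replicate error, no test between genotypes and no p-value in what follows, and leaving out a sample was not possible. A peak counted as shared when it overlapped a peak of the other list by at least 1 bp, and as single-list otherwise. Strength is the authors' −log10 q of a peak, its adjusted significance over the local background within its own list. Values of both lists stand side by side and no change is read from them. Absence from a list means only that no peak passed its calling threshold there, not that the site was closed. In a mixed sample, fewer cells with an open site and less opening per cell cannot be told apart.

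Hox genes encode homeodomain transcription factors that give cells of the embryo their position along the head-to-tail axis. Within a cluster the low-numbered genes act anteriorly and the high-numbered genes posteriorly, an order known as collinearity. Polycomb complexes keep inactive Hox clusters silent and trithorax proteins keep active ones on, and early germ cells are known for holding this somatic programme down. GATA2 is a zinc finger transcription factor best known from blood progenitors and endothelium.

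The 2 lists were not equally rich, which bears on each count below. Median pileup at the summit was 19 fragments in both lists, while the genome background, the lowest local background in a list, was 2.19 fragments in Gata2WT and 2.01 in Gata2cKO. The lowest −log10 p in either list was 3.0. Germ cell marker genes had a peak within 1 kb of a start or gene end in both lists in 11 of 12 cases, with Nanos3 in neither. Markers of other ovarian cells had such peaks too, at shares near or below the 64.06% of all coding genes with one in both lists. Of 12 supporting cell markers 7 had such a peak in both lists and 4 in neither, of 10 stromal markers 6 and 3, and of 10 endothelial and blood markers 5 and 5. The remaining pair was called in Gata2WT alone, Amhr2, the receptor for anti-Müllerian hormone, at a strength of 3.07 and Pdgfra, a mesenchymal growth factor receptor, at 6.34. Defining markers of other cells went both ways: Foxl2, Wt1, Col1a1, Pecam1 and Kdr had such a peak in both lists, and Nr5a1, Gata4, Lhx9, Nr2f2, Cdh5 and Ptprc in neither. The part of other cells in the Hox values was not tested.

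All 4 clusters were dense with peaks. The Hoxa cluster (chr6:52155367-52260880, 11 genes, reverse strand) held 1.80 peaks per 10 kb in Gata2WT and 1.52 in Gata2cKO. In the Hoxb cluster (chr11:96194316-96368254, 10 genes, forward strand) density was 0.805 per 10 kb in each list. The Hoxc cluster (chr15:102921131-103036856, 9 genes, forward strand) held 1.47 and 1.12 per 10 kb, and the Hoxd cluster (chr2:74668225-74765142, 9 genes, forward strand) 1.45 and 1.75. Hoxa was thus the densest cluster in Gata2WT and Hoxd in Gata2cKO, and Hoxb, the longest, was the sparsest in both. For scale, 100 kb tiles of the 19 autosomes and X held a mean of 1.89 Gata2WT and 1.69 Gata2cKO peaks. Only 0.004% of tiles matched or passed the Hoxa density in Gata2WT and 0.034% in Gata2cKO, whereas 2.70% and 3.62% reached that of Hoxb. Over all 4 clusters, 64 Gata2WT peaks covered 8.03% of the sequence and 60 Gata2cKO peaks covered 6.98%.

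**Figure D1:**
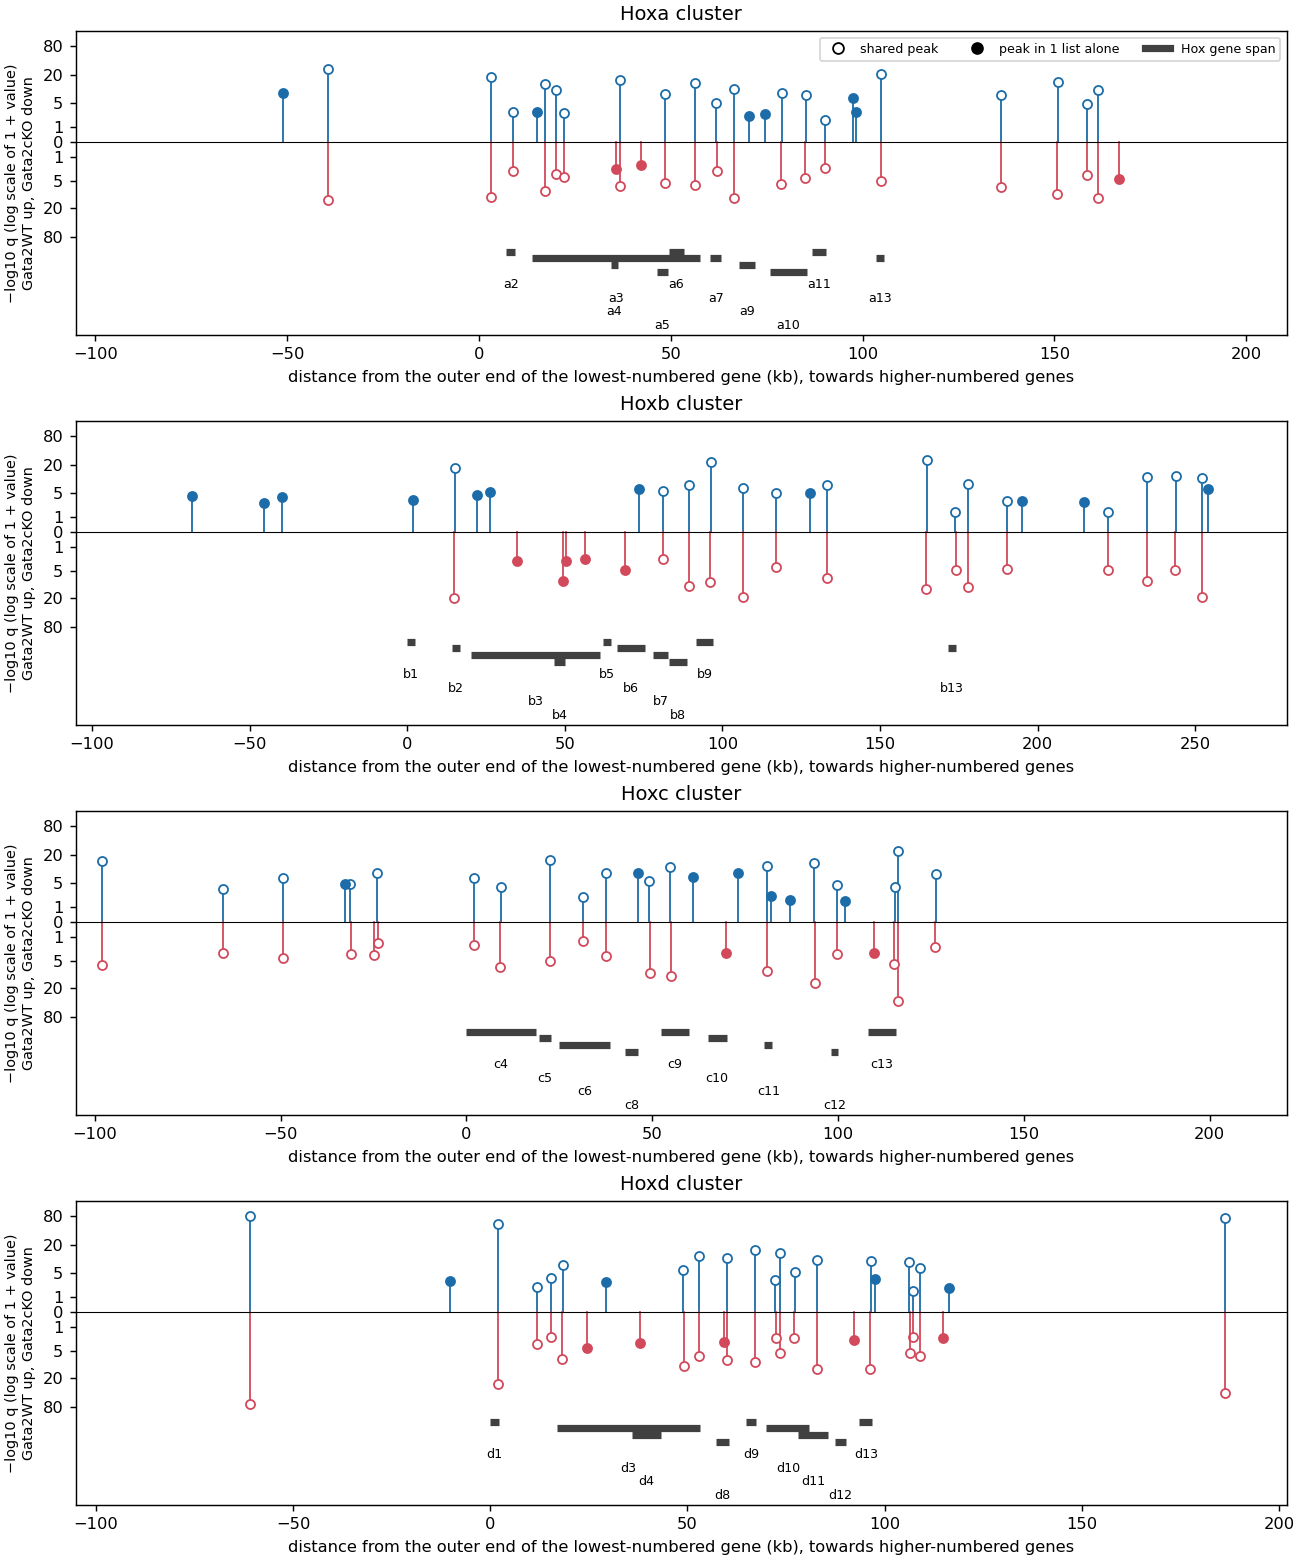
Peaks in the windows of the 4 Hox clusters, plotted by distance in kb from the outer end of the lowest-numbered gene towards the higher-numbered genes. Stems show the −log10 q of each peak on a log scale, Gata2WT upwards and Gata2cKO downwards. Open circles mark shared peaks, filled circles single-list peaks and dark bars 38 Hox gene spans. The middle of Hoxb holds the longest stretch inside any cluster without a shared peak, with filled circles of both lists.

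Summed over the clusters, the flanks held fewer peaks than the clusters themselves. On the low-numbered side the 100 kb flanks held 0.325 peaks per 10 kb in Gata2WT and 0.200 in Gata2cKO. The high-numbered side held 0.525 and 0.450. Hoxb differed in Gata2WT, where the flank beyond Hoxb13 held 0.900 per 10 kb, above the 0.805 inside the cluster. Of 13 Gata2WT peaks on the low-numbered side 6 were single-list, while none of the 8 Gata2cKO peaks was. The Gata2WT share was 46.15% with a Wilson interval of 23.21% to 70.86%, beside 28.5% of all peaks in that list. For Gata2cKO the interval was 0% to 32.44%, beside 19.7% of all peaks. Both intervals held the whole-list share, so these counts are not read as a result about Hox. Beyond Hoxb1 the Hoxb flank held 3 Gata2WT peaks, all of them single-list, and no Gata2cKO peak. These 3 peaks had a strength of at most 4.05. Of all Gata2WT peaks below a strength of 5, 58.5% were single-list.

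The share of peaks found in 1 list alone was near that of the genome. In Gata2WT 28 of 98 Hox peaks were single-list, 28.6% with a 95% Wilson interval of 20.57% to 38.19%, beside 28.5% of all peaks in that list. In Gata2cKO 15 of 86 were single-list, 17.4% with an interval of 10.86% to 26.80%, beside 19.7% of all peaks. Shares this close to the background are not a result about Hox. With a strength of at least 5 in both lists they were 30.51% and 6.82%, beside 20.21% and 14.51% of all peaks, on 59 and 44 Hox peaks. These intervals cover counting error only, and peaks of 1 cluster share a locus. Hoxb had the highest Gata2WT-only share, 11 of 26 peaks or 42.3% (25.54% to 61.05%), and Hoxd the lowest, 4 of 22 or 18.2% (7.31% to 38.52%). Hoxa with 6 of 25 and Hoxc with 7 of 25 lay between them, at 24.0% and 28%. This order rested on weak and flanking peaks: at a strength of 5 or more in both lists Hoxc was highest with 8 of 15, beside 5 of 14 in Hoxb, 4 of 16 in Hoxa and 1 of 14 in Hoxd. Without flanks Hoxb had 5 of 14 and Hoxd 1 of 14. Gata2cKO-only peaks made up 5 of 20 in Hoxb (25.0%), 5 of 23 in Hoxd (21.7%), 3 of 22 in Hoxa (13.6%) and 2 of 21 in Hoxc (9.52%). The intervals of all 4 clusters overlapped one another and held the whole-list share in both lists.

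**Figure D2:**
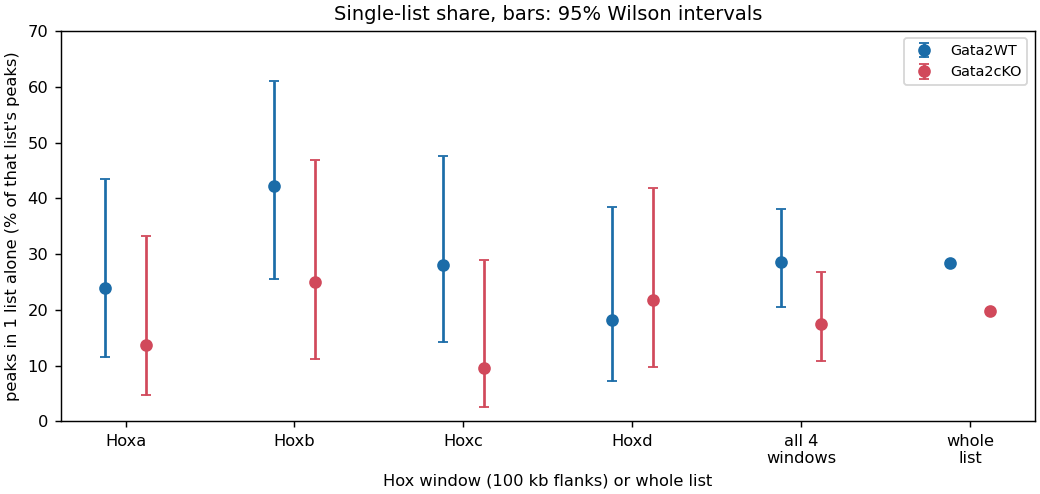
Share of peaks found in 1 list alone for each Hox window, all 4 windows and the whole list, in percent, with bars for 95% Wilson intervals that cover counting error only. The Hoxb window is highest in Gata2WT at 42.3%, and every interval holds the share of its whole list, 28.5% in Gata2WT and 19.7% in Gata2cKO.

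Single-list Hox peaks were weak and narrow, as single-list peaks were over the whole lists. The 28 Gata2WT-only peaks had a median strength of 3.34 and a median width of 384.5 bp, against 8.18 and 630 bp for the 70 shared ones. The 15 Gata2cKO-only peaks had 2.98 and 304 bp against 6.35 and 601 bp for 71 shared. Over the whole Gata2WT list, single-list peaks had 2.84 and 359 bp against 11.67 and 682 bp for shared ones. In the whole Gata2cKO list these were 2.88 and 333 bp against 10.22 and 633 bp. Of 39 Gata2WT peaks below a strength of 5, 20 were single-list, and of 32 between 5 and 10, 8 were, where 58.5% and 20.5% of all peaks in these classes were. None of the 27 at 10 or above was single-list, where 1.30% of all peaks of that strength were. For Gata2cKO the counts were 14 of 42, 1 of 24 and 0 of 20, beside 43.9%, 12.5% and 0.802% of all peaks. The strongest single-list peak reached 8.45 in Gata2WT, at Hoxc8, and 8.44 in Gata2cKO, at Hoxb4.

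A start peak was a peak within 1 kb of a gene's start, or of either gene end for the 17 Hox genes without an entry in the RefSeq promoter table. Such a peak was listed for 27 of 39 Hox genes in Gata2WT, or 25 in Gata2cKO, where 66.1% and 65.1% of all 21631 coding genes had one. Start peaks lay in both lists for 23 Hox genes, in neither for 10, in Gata2WT alone for 4 (Hoxa3, Hoxb1, Hoxc8 and Hoxc9) and in Gata2cKO alone for 2 (Hoxb4 and Hoxc10). With the 5′ end by cluster strand in place of either end, Hoxb2 and Hoxc11 moved to Gata2WT alone, for counts of 21, 10, 6 and 2. Over all coding genes 2.00% had a start peak in Gata2WT alone and 1.05% in Gata2cKO alone. At Hox starts the peaks had a median strength of 9.61 in Gata2WT and 5.88 in Gata2cKO, against 45.71 and 37.26 over all coding genes with a start peak, and the part of strength in the single-list counts was not tested.

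By position along the clusters, 6 of the 10 genes with no start peak in either list were central ones. Over all coding genes 32.89% had none in either list and 64.06% had one in both. Of the 16 genes numbered 9 to 13, which pattern the trunk end, limbs and urogenital tract, 12 had a start peak in both lists and 2 in neither. Among the 15 genes numbered 4 to 8 there were 7 in both and 6 in neither, and among the 8 numbered 1 to 3 there were 4 and 2. In the Hoxb cluster 5 of 10 genes had no start peak in either list: Hoxb3, Hoxb5, Hoxb6, Hoxb7 and Hoxb8. They lie side by side, with Hoxb4 inside the span of Hoxb3. Most of the central genes without a start peak are thus neighbours in Hoxb, so position and cluster cannot be told apart here. Every Hoxc gene had a start peak in at least 1 list, and Hoxd lacked one at Hoxd4 and Hoxd12 in both lists.

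**Figure D3:**
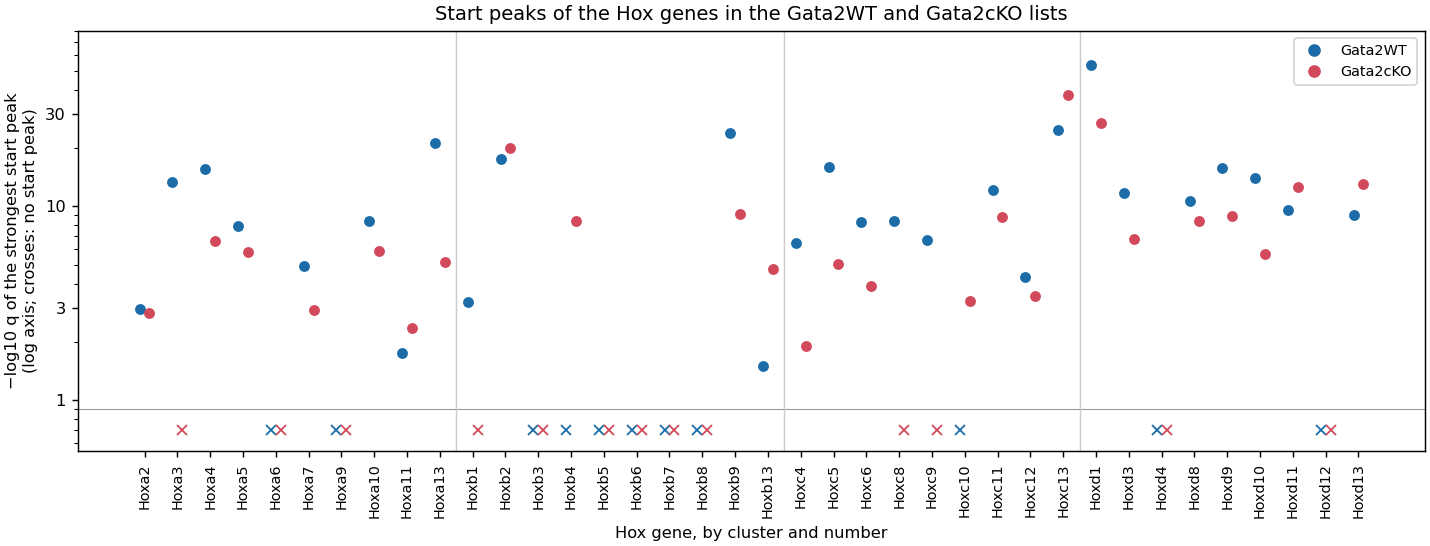
Strength, as −log10 q on a log scale, of the start peak of 38 Hox genes in Gata2WT and Gata2cKO, ordered by cluster and number, with crosses where a list has no start peak. Hoxd1 is the strongest gene in Gata2WT at 53.62 and Hoxc13 the strongest in Gata2cKO at 37.38, and 9 of the genes shown have a cross in both lists.

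In the Hoxa cluster 7 of 11 genes had a start peak in both lists. The strongest in Gata2WT was at Hoxa13, a limb and genital tubercle gene mutated in hand-foot-genital syndrome. Its peak (chr6:52259903-52260305 in Gata2WT) had a strength of 21.22 and a pileup of 37 fragments, and in Gata2cKO its strength was 5.18. Hoxa4 had 15.67 in Gata2WT and 6.64 in Gata2cKO. Hoxa3, needed for the thymus and parathyroid, had 13.43 in Gata2WT (chr6:52211258-52212093) and no start peak in Gata2cKO. That call is one of distance: the same site carried a shared Gata2cKO peak of strength 6.45 (chr6:52211334-52211861) whose edge lay just beyond 1 kb from the start. Hoxa10 and Hoxa11, which pattern the uterus, had 8.44 and 5.88, and 1.75 and 2.37, in Gata2WT and Gata2cKO. Hoxa5 had 7.95 and 5.83, Hoxa7 had 4.95 and 2.92, and Hoxa2, the selector of the hyoid arch, had 2.94 and 2.81. Hoxa6 and Hoxa9 had no start peak in either list.

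In the Hoxb cluster only Hoxb2, Hoxb9 and Hoxb13 had a start peak in both lists. Hoxb9 had the strongest in Gata2WT (chr11:96271507-96272786), 23.96 with a pileup of 48 fragments, and 9.14 in Gata2cKO. Hoxb2, a hindbrain gene, had 17.46 in Gata2WT (chr11:96352632-96353602) and 19.96 in Gata2cKO, a shared peak whose Gata2cKO edge lay within 1 kb of the 3′ end only. Hoxb13, known from prostate and colon, had 1.51 and 4.75. Hoxb1, which sets the identity of the fourth hindbrain segment, had a weak peak in Gata2WT alone (chr11:96366360-96367248), of strength 3.20, 11 fragments and 3.69-fold enrichment. Hoxb4, known for expanding blood stem cells, had 2 peaks near its start in Gata2cKO alone. The stronger (chr11:96318646-96318934) had a strength of 8.44, 21 fragments and 5.06-fold enrichment, and the weaker (chr11:96317701-96318139) had 2.85.

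All 9 Hoxc genes had a start peak, 6 of them in both lists. Hoxc13, required in hair follicles, had the strongest (chr15:102920626-102920960 in Gata2WT), 24.88 with 44 fragments in Gata2WT and 37.38 in Gata2cKO. Hoxc5 had 15.88 and 5.05. Hoxc11 had 12.11 and 8.77, but at a peak near its 3′ end, and at its 5′ end only a Gata2WT peak of 2.2. Hoxc6 had 8.35 and 3.90, Hoxc4 had 6.48 and 1.90, and Hoxc12 had 4.33 and 3.46. The remaining 3 genes are neighbours and fell in 1 list each. Hoxc8, a thoracic gene, had a Gata2WT peak (chr15:102990575-102991068) of strength 8.45, 24 fragments and 4.59-fold enrichment. Hoxc9, a motor neuron gene of the thoracic spinal cord, had a Gata2WT peak of 6.71 (chr15:102975754-102976099). Hoxc10, a lumbar gene, had a Gata2cKO peak of 3.26 (chr15:102966607-102967714). Another Gata2WT-only peak of 8.44 with 26 fragments (chr15:102963655-102964223) lay 2.92 kb from the 5′ end of Hoxc10.

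No Hoxd gene had start peaks in 1 list alone, although a second, weaker peak near the Hoxd13 start (chr2:74667434-74667805, strength 3.48) was in Gata2WT alone. Hoxd1, an anterior gene known from sensory neurons, had the strongest of all Hox genes in Gata2WT (chr2:74762663-74763686), 53.62 with 82 fragments and 10.2-fold enrichment. In Gata2cKO its peak (chr2:74762730-74763667) had 26.96 with 45 fragments and 8.46-fold enrichment. Its strength was above the median of all coding genes with a start peak in Gata2WT and below that median in Gata2cKO. Hoxd9 had 15.85 and 8.90, Hoxd10 had 13.96 and 5.66, and Hoxd3 had 11.68 and 6.80. The digit genes Hoxd13 and Hoxd11 had the larger value in Gata2cKO, 8.99 and 13.03 for Hoxd13 and 9.61 and 12.64 for Hoxd11. Hoxd8 had 10.71 in Gata2WT and 8.43 in Gata2cKO.

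Promoter sequence is shown for 6 genes that span these states, as the 250 bases before the start on the gene's own strand, from RefSeq (GRCm38.p6), with each CpG in capitals. CpG-rich promoters are the kind on which Polycomb and trithorax proteins usually act. Hoxd1 (chr2:74762730-74762979, forward strand) and Hoxd10 (chr2:74691641-74691890, forward strand) had a peak over this window in both lists, and Hoxb4 (chr11:96318017-96318266, forward strand) in Gata2cKO alone. At Hoxb4 this was the weaker of its Gata2cKO peaks, of strength 2.85, and the stronger lay inside the gene. No peak lay over the windows of Hoxb1 (chr11:96365508-96365757, forward strand), Hoxd4 (chr2:74721728-74721977, forward strand) and Hoxa6 (chr6:52208673-52208922, reverse strand).
Hoxd1: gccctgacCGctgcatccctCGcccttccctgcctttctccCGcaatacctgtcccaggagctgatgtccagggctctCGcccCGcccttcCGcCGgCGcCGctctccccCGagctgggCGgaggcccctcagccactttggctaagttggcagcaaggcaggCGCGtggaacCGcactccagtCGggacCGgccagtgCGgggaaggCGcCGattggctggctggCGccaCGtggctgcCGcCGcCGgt
Hoxd10: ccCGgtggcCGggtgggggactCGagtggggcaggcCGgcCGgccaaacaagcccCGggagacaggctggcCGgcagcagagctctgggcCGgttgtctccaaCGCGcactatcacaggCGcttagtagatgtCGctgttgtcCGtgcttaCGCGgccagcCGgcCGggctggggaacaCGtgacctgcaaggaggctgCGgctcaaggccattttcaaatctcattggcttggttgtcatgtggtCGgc
Hoxb4: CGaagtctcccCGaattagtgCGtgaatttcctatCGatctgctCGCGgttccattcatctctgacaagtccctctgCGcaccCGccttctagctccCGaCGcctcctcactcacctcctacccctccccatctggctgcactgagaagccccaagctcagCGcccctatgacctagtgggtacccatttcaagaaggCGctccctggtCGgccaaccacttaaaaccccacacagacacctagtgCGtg
Hoxb1: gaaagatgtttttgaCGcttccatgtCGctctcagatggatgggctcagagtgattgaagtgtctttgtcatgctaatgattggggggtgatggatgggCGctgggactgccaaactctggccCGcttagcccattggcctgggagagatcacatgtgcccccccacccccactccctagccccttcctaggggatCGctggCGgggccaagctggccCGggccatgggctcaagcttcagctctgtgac
Hoxd4: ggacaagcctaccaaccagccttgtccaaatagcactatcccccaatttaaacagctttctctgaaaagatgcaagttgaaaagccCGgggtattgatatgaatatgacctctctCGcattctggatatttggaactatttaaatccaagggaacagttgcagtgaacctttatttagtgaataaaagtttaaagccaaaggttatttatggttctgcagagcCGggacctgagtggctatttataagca
Hoxa6: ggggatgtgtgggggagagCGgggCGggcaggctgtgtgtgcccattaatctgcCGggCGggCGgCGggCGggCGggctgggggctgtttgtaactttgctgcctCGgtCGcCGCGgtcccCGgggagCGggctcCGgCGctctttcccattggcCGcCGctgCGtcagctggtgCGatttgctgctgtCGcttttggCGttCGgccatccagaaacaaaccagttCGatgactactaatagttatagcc
The windows hold 24 CpG in Hoxd1, 20 in Hoxd10, 14 in Hoxb4, 7 in Hoxb1, 3 in Hoxd4 and 24 in Hoxa6, so Hoxa6 was as CpG-rich as Hoxd1 and had no peak there.

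The table held 24 promoters of 22 Hox genes, with a median GC content of 58.6% and a median of 12.5 CpG in 250 bases. A peak lay over 29.2% of these windows in Gata2WT and 29.2% in Gata2cKO, beside 58.8% and 57.8% of all 21045 promoters. In both lists 5 Hox promoters had such a peak, and in neither 15. The Hoxa5 and Hoxa11 windows were covered only by Gata2WT peaks. Those of Hoxb4 and 1 of 2 for Hoxa10 were covered only by Gata2cKO peaks. Among all 21045 promoters, 11872 windows were covered in both lists and 8383 in neither. Coverage came only from Gata2WT peaks for 494 and only from Gata2cKO peaks for 296. Hox promoters with a peak in both lists had a median of 20 CpG (range 12 to 24) and those with none 8 (range 2 to 35). Over all promoters the medians were 17 and 2. Hoxa13, with the most CpG of any Hox promoter, was among those without a peak over the window, although a start peak lay inside the gene.

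GATA factors bind the core GATA, searched here as GATAA on both strands. A match was found in 5 of 24 Hox promoters, 20.8%, beside 20.5% of all promoters: Hoxa9, Hoxb8, Hoxd8, Hoxd9 and Hoxd12. The windows of Hoxd9 (chr2:74697513-74697762, forward strand), with a start peak in both lists, and Hoxd12 (chr2:74674763-74675012, forward strand), with none, are shown with the match, or its reverse complement TTATC, in capitals.
Hoxd9: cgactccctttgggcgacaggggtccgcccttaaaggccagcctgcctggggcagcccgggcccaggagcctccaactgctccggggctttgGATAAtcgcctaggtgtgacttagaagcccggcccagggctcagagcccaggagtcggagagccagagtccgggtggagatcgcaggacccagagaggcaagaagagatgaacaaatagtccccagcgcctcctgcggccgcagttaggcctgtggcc
Hoxd12: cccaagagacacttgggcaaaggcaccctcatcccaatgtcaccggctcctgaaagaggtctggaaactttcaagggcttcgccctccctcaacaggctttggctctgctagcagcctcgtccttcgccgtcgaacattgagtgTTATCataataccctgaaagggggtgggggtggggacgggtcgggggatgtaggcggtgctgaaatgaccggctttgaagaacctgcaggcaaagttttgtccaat
A match describes letters and is not a binding site. The retinoic acid receptor half-site AGGTCA was found in 6 Hox promoters, 25.0% beside 12.8% of all: Hoxb4, Hoxc4, Hoxd3, Hoxd4, Hoxd8 and Hoxd10. The PBX-HOX motif TGATNNAT was found in 4, 16.7% beside 6.62%, and CCAAT in 14, 58.3% beside 35.7%, each searched on both strands.

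Peaks at Hox starts lay mostly inside the genes, past the start. Over starts given by the promoter table, the summit was downstream of the start in 16 of 17 cases in Gata2WT and 14 of 16 in Gata2cKO. That is 94.1% and 87.5%, beside 55.9% and 53.8% of all starts with a peak. The median summit was 382 bp downstream in Gata2WT and 418 bp in Gata2cKO, against 40 bp and 23 bp over all starts. Among all start peaks weaker than 20, closer to Hox in strength, 61.1% and 59.4% were downstream, at medians of 82 bp and 70 bp. Hoxd10 was the exception in both lists, with summits 277 bp and 291 bp upstream, and Hoxd11 was 70 bp upstream in Gata2cKO alone. The start base itself was inside the peak for 8 of 27 Hox genes in Gata2WT (29.6%) and 9 of 25 in Gata2cKO (36.0%), against 87.4% and 87.6% of all coding genes with a start peak. For the genes with a listed start the counts were 6 of 16 and 6 of 15, beside 90.1% and 90.5%. The genes of 1 cluster share a locus, so these counts are descriptions.

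**Figure D4:**
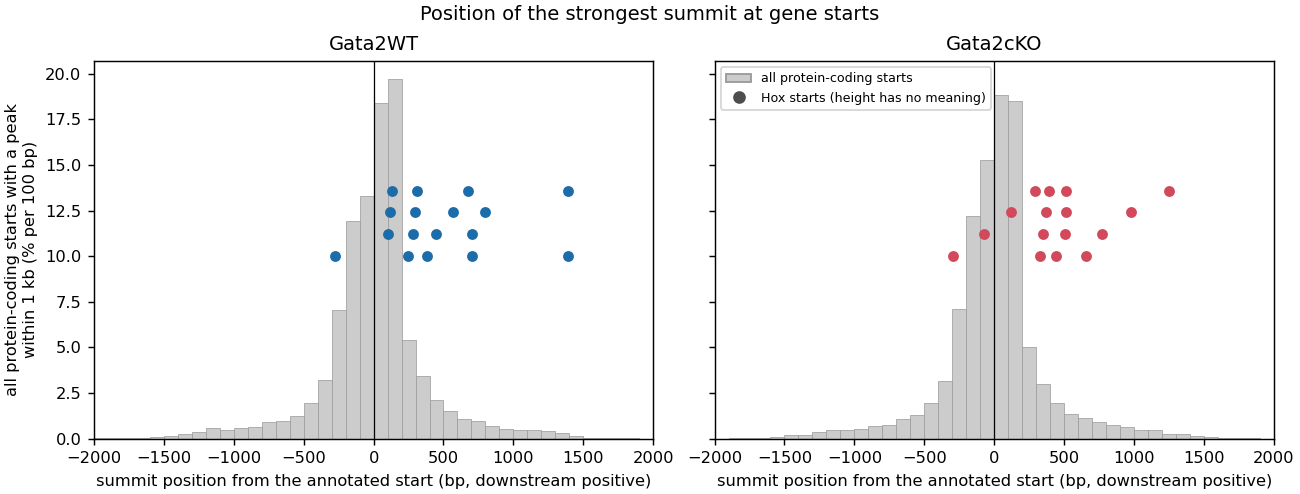
Distance in bp from a start listed in the promoter table to the summit of its strongest start peak, downstream to the right. Hox genes are points and all coding genes a distribution, in each list. Nearly all Hox points lie to the right of 0, with medians of 382 bp in Gata2WT and 418 bp in Gata2cKO, while the distributions for all genes centre near 0.

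The longest stretch inside any cluster without a shared peak was in Hoxb (chr11:96287379-96352631, 65.3 kb), from within Hoxb7 to within Hoxb2. In the other clusters the longest such stretch was 14.1 kb in Hoxa, 25.2 kb in Hoxc and 30 kb in Hoxd. The Hoxb stretch was not without peaks: it held 3 Gata2WT-only and 5 Gata2cKO-only peaks. That none of them overlap follows from how the stretch was chosen. The Gata2WT peaks lay in Hoxb6 (chr11:96294453-96295001, strength 5.94) and towards the Hoxb2 side of Hoxb3 (chr11:96341706-96342396, 5.13, and chr11:96345774-96346320, 4.29). The Gata2cKO peaks lay between them, at Hoxb6 (chr11:96299149-96299442, 4.95), around Hoxb4 as above, and within the Hoxb3 span (chr11:96311696-96312028, 2.59, and chr11:96333192-96333539, 2.88). All 8 were below a strength of 10, the range in which single-list peaks were common genome-wide.

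Away from Hox starts, 66 Hox-window peaks in Gata2WT (23 single-list) and 56 in Gata2cKO (11 single-list) remained, against 32 (5) and 30 (4) at Hox starts. Peaks at starts of other genes in the windows were counted as away from Hox starts. Over all peaks 28.5% and 19.7% were single-list. No split of all peaks by start stands beside this contrast, so it is not read as a result about Hox. By their Gata2WT values, some of the strongest shared ones inside a cluster lay at long noncoding RNAs. A Hoxb peak between Hoxb9 and Hoxb13 at Gm30134 (chr11:96202971-96204045) had 25.68 in Gata2WT and 12.99 in Gata2cKO. A Hoxc peak at the end of Hotair (chr15:102942912-102943460) had 13.58 and 16.04. Hotair has been described as recruiting Polycomb to Hoxd from the Hoxc cluster, which was not tested here. In the low-numbered flank of Hoxa a shared peak (chr6:52115596-52116830) had 26.76 and 13.45. By the Gata2WT value a peak in the Hoxb flank beyond Hoxb13 came next in that window, with 12.08 and 4.86. By the Gata2cKO value the strongest there were at chr11:96116186-96116863 (19.04, and 10.80 in Gata2WT) and chr11:96261468-96261917 (18.91, and 6.46 in Gata2WT). In the Hoxc flank beyond Hoxc4 a peak (chr15:103133719-103135053) had 15.14 and 6.35. Both of the strongest in the Hoxd window were at neighbouring housekeeping genes, Mtx2 (chr2:74825523-74826452), a mitochondrial import gene, with 79.18 and 67.85, and Lnpk (chr2:74578119-74579418), an endoplasmic reticulum shape gene, with 72.76 and 41.57.

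All single-list peaks of strength 5 or more away from Hox starts were from Gata2WT. In that list 7.61% of all peaks of that strength were single-list, against 4.74% in Gata2cKO. A Gata2cKO-only peak in Hoxb6 was just under that limit at 4.95. Besides those in Hoxb and the one near Hoxc10 given above, they lay in the low-numbered flank of Hoxa (chr6:52104193-52104666, strength 8.20, 17 fragments), between Hoxa11 and Hoxa13 (chr6:52252468-52253392, 6.35, 20 fragments) and 80.1 kb beyond Hoxb13 (chr11:96114033-96114339, 6.02, 20 fragments).

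Of 48 noncoding genes and pseudogenes in the windows, 22 had a start peak in both lists and 21 in neither. All 7 flanking coding genes had one in both, where 64.06% of all coding genes did. No share over all noncoding genes stands beside these counts, and some of the genes share a peak with a Hox gene. The counts are therefore descriptions only. Evx1 and Evx2, homeobox genes at the ends of Hoxa and Hoxd, had 4.72 and 3.53, and 8.58 and 5.56, in Gata2WT and Gata2cKO. Haglr shares the Hoxd1 peak, Hoxb3os that of Hoxb2, and Mir615 that of Hoxc5. Hoxd3os1 had 5.65 and 11.14. Single-list start peaks were weak: Hoxaas2 (2.97), Mir196b (2.59) and Gm31790 (3.48) in Gata2WT, Mir10a (2.85) and Mir10b (3.22) in Gata2cKO. Hottip, a noncoding RNA that activates posterior Hoxa genes, and Halr1 had no start peak in either list.

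The Hox clusters encode microRNAs that target Hox transcripts, shown here from RefSeq (GRCm38.p6) because the peaks nearest to both miR-10 genes were in 1 list alone. Capitals mark the seed, bases 2 to 8. miR-10a-5p (chr11:96317186-96317208, forward) is from Hoxb and miR-10b-5p (chr2:74726074-74726096, forward) from Hoxd. miR-196a-5p is made from Hoxb (chr11:96265187-96265208, forward) and Hoxc (chr15:102973365-102973386, forward), miR-196b-5p from Hoxa (chr6:52230129-52230150, reverse) and miR-615-3p from Hoxc (chr15:103014969-103014990, forward).
miR-10a-5p: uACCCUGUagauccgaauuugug
miR-10b-5p: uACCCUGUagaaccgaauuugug
miR-196a-5p: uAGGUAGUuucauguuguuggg
miR-196b-5p: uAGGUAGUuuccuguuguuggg
miR-615-3p: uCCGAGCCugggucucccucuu
Both miR-10 members share the seed ACCCUGU, and miR-196a and miR-196b share AGGUAGU. Each miR-10 hairpin had a Gata2cKO-only peak close by, at 427 bp for Mir10a (chr11:96317701-96318139) and 678 bp for Mir10b (chr2:74726815-74727405). The nearest Gata2WT peak was 22164 bp and 9670 bp away. The Mir10a peak is the weaker of the Hoxb4 pair. Mir196b had a Gata2WT-only peak over its hairpin (chr6:52229717-52230111), and Mir196a-2 had one 2320 bp away, that of Hoxc9. The nearest Gata2cKO peak was 3596 bp from Mir196b and 5636 bp from Mir196a-2. Mir196a-1 had a shared peak at 3336 bp in Gata2WT and 3247 bp in Gata2cKO. All 3 single-list peaks within 1 kb of a microRNA were below 5 in strength, where 58.5% of all Gata2WT and 43.9% of all Gata2cKO peaks were single-list.

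Median local background at the peaks was above the whole-list level inside Hoxa and Hoxd in both lists, and inside all 4 clusters in Gata2WT. Local background is the level expected at a peak, computed from its pileup and fold enrichment. It is not a signal measured between peaks. Its median at peaks inside the clusters was 4.45 fragments in Gata2WT and 3.66 in Gata2cKO, which is 2.04 and 1.82 times the genome background of each list. Over all peaks it was 3.25 and 3.19 fragments, or 1.49 and 1.58 times. In the flanks it was 3.15 and 2.87. Hoxa was highest in both lists at 5.66 and 4.48 fragments, followed by Hoxd at 5.18 and 4.06, Hoxc at 4.15 and 3.21 and Hoxb at 3.58 and 3.20. In Gata2cKO the values of Hoxb and Hoxc were thus at the whole-list level. At start peaks alone the order was the other way: the median was 4.75 fragments in Gata2WT and 3.88 in Gata2cKO for Hox genes, against 7.15 and 5.91 for all coding genes.

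**Figure D5:**
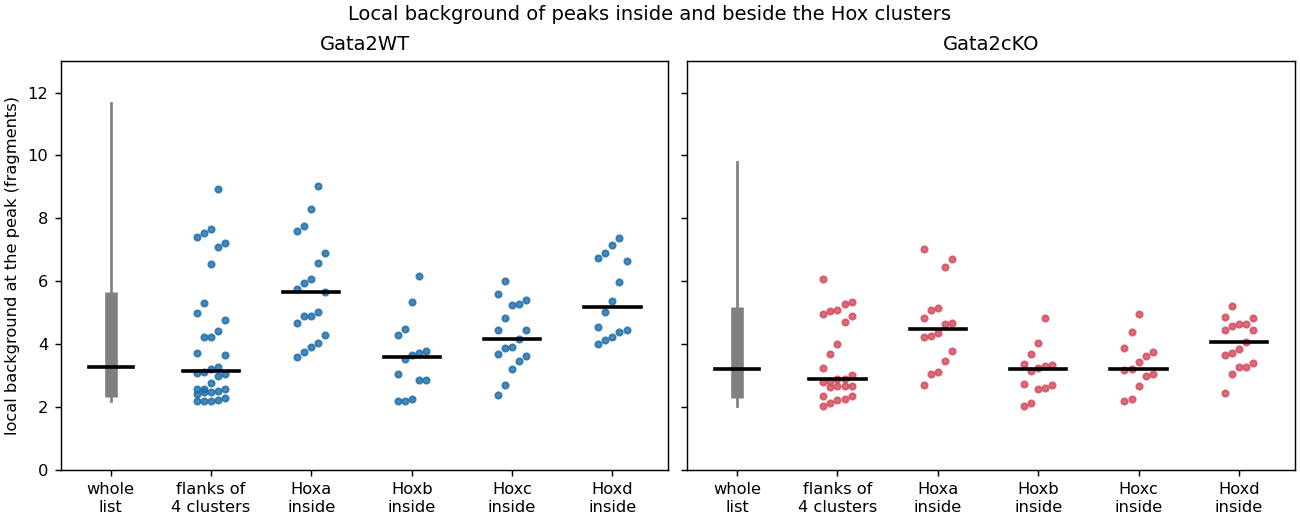
Local background in fragments at peaks inside each Hox cluster, in the flanks and in the whole list, for Gata2WT and Gata2cKO. Points are Hox peaks and lines their medians; peaks inside Hoxa have the highest medians, 5.66 and 4.48, and the flanks, at 3.15 and 2.87, lie below the whole-list medians of 3.25 and 3.19.

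Most genes that work with or on Hox proteins had a start peak in both lists, where 64.06% of all coding genes did. Of 9 cofactor genes of the PBX, MEIS and PKNOX families, which bind DNA with Hox proteins, 8 had one in both lists and Meis2 in neither. Meis1 was weak, at 4.28 and 6.25, while Pbx3 had 187.79 and 125.61. All 5 Cdx and Evx genes had one, among them Cdx2, an activator of Hox genes in the tail bud, at 21.60 and 18.07. All 19 Polycomb genes had one in both lists, such as the methyltransferase gene Ezh2 at 78.39 and 66.45, and 8 of 9 trithorax-group genes did, with the demethylase gene Kdm6b in neither. Of 39 other developmental homeobox and T-box genes, 33 had a start peak in both lists and 6 in neither. No gene of these lists had one in 1 list alone.

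The windows of those 39 homeobox and T-box genes, 34 after merging, serve as the nearest comparison. They held 336 Gata2WT and 276 Gata2cKO peaks, or 0.439 and 0.360 per 10 kb, against 0.758 and 0.666 over the Hox windows with their flanks. They span 7659948 bp and the Hox windows 1292097 bp, with 39 genes in each set, so the share of flank differs. The Hox flanks alone held 0.325 and 0.525 per 10 kb in Gata2WT, and 0.200 and 0.450 in Gata2cKO. The part of flanks in the density contrast was not tested. Single-list shares in the homeobox and T-box windows were 29.8% (25.12% to 34.86%) in Gata2WT and 14.49% (10.83% to 19.13%) in Gata2cKO. Hox shares of 28.6% and 17.4% lay within these intervals. Median local background at their peaks was 3.79 fragments in Gata2WT and 3.44 in Gata2cKO. Over the Hox windows with their flanks it was 4.24 and 3.45, and over the whole lists 3.25 and 3.19. In Gata2cKO the 2 sets of windows were thus nearly equal.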

How the data were processed

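ATAC-seq peaks of Gata2WT and Gata2cKO germ cells, 2 samples each, were analysed as 1 combined list per genotype. Per the submitters' processing notes, the tools included Trimmomatic 0.39, Bowtie2 2.3.5.1, Picard 2.23.0, SAMtools, bedtools 2.29.2 and MACS2 2.2.6, on GRCm38 (mm10). For their parameters, any Tn5 shift and the way replicates were combined: not given in the sources used here. Reads per sample were not analysed here.

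The deposited lists give for each peak a score, a rounded-down multiple of −log10 p, and a summit position. The deposited fold enrichment is the ratio of summit pileup to local background with 1 added to each. The deposited −log10 p and −log10 q compare that pileup with the local background of the same list. None is scaled between genotypes.

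Rows with the same interval were merged into 1 peak with its strongest summit, which left 49394 peaks of 58357 rows in Gata2WT and 44139 of 52236 in Gata2cKO on the 19 autosomes and X. Pileup and local background were solved together from fold and −log10 p, with the pileup whole within 0.001. This and the overlaps were tested on simulated data. Python 3.11.15, numpy 2.4.6, pandas 2.3.3 and scipy 1.17.1 were used.

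Genes, promoters and microRNAs came from RefSeq tables (GRCm38.p6), which give no exons or introns. The promoter table listed 22 of the 39 Hox genes; for the other 17 either gene end served as the start. All 39 enter the counts, and the values of 1 gene are not reported here. Intervals are 95% Wilson intervals. The members, gene lists and rules were chosen with earlier results of these data known. Genes given in full are those with a start peak in 1 list alone, the 3 strongest per cluster in Gata2WT and those with none. Peaks given away from Hox starts are the 2 strongest shared per cluster by the Gata2WT value and all single-list ones of −log10 q 5 or more. Alternatives changed the overlap rule, strength threshold, list length, row merging, flank and start distance.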

Additional observations from a re-analysis of the deposited data

How the results depend on the processing

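With 1 combined list per genotype, depth and the calling threshold limit all counts, and the spread between samples is unknown. No paired analysis was possible because the replicates of each genotype were combined into 1 list, and for the same reason no sample could be left out. No Hox gene moved from a start peak in 1 list alone to the other list alone under any setting tried. A strength of at least 5 in both lists left 59 of 98 Gata2WT and 44 of 86 Gata2cKO peaks. It gave 0.813 and 0.630 peaks per 10 kb inside the clusters, single-list shares of 30.51% in Gata2WT and 6.82% in Gata2cKO in place of 28.6% and 17.4%, beside 20.21% and 14.51% of all peaks, and 1 gene with a start peak in Gata2cKO alone in place of 2. Peaks of that strength set against the whole other list, chosen after seeing the data, gave single-list shares of 13.56% in Gata2WT and 2.27% in Gata2cKO, beside 7.61% and 4.74% of all peaks. Without flanks 64 Gata2WT peaks remained. A start inside the peak left 8 genes in Gata2WT and 9 in Gata2cKO, with 2 in Gata2WT alone and 3 in Gata2cKO alone. A limit of 500 bp left 1 in Gata2WT alone and 2 in Gata2cKO alone. With both lists at the shorter length, 4 genes were in Gata2cKO alone, with Hoxa11 and Hoxb13 added. The cause of these shifts was not tested beyond the construction of each setting. The 5′ end of unlisted genes was also chosen after seeing the data and kept all counts of genes within 1.5 times. With summits within 250 bp as the overlap rule, the shares were 35.71% and 26.74%, beside 34.65% and 26.87% of all peaks. Under the other overlap rule, a strength of 2, unmerged rows and flanks of 50 kb or 200 kb, totals stayed within 1.5 times and single-list shares over all 4 windows within the 95% intervals of the reported shares.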
